A study of Rattus norvegicus with 12 samples.

Results

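Smooth muscle and pericyte genes were examined in rat retina. They are 6 genes of the mural lineage, chosen by Ensembl identifier as members of the vascular cells that normally express miR-143. Acta2, Tagln, Myh11 and Des are counted here on the smooth muscle side, and Pdgfrb and Rgs5 on the pericyte side. Des is the less clear case, because pericytes also contain desmin, its product. The chosen genes are 6 of the 32883 Ensembl genes in the deposited table. All 6 were at or above 1 TPM in each of the 12 libraries, so the filter on low values removed none of them. TPM is a unit of expression that corrects reads for the length of a gene and for the size of a library. The symbols were given together with the identifiers. All 6 symbols are in the RefSeq table at hand, but that table holds 0 Ensembl identifiers, so the pairing of symbol and identifier could not be checked. For the same reason the label retina was not checked against markers of retinal cell types.

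The 12 libraries form 4 groups of 3. All come from rats of the Sprague Dawley strain, wild type, 18 days after birth (P18). OIR groups had oxygen-induced retinopathy, a model in which changes of oxygen stop young retinal vessels from growing and later make them grow abnormally, and sham groups were the controls. Each condition has 1 group given a miR-143 mimic, a synthetic copy of that microRNA, and 1 group given a scrambled RNA, here called sham scrambled, sham mimic, OIR scrambled and OIR mimic. The sources used here do not say which cells took up the RNA. The protocol speaks of biological samples in triplicate without tying a library to an animal, and a p-value here reflects library-to-library spread, part of which may be technical. In the column names L goes with the mimic and R with scrambled RNA, and the numbers of sham and OIR do not mix. What these stand for cannot be told apart from injection and condition. Sham scrambled replicate 1 and sham mimic replicate 1 share a number.

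Mural cells wrap the endothelial tube of blood vessels. Smooth muscle cells on arterioles hold contractile fibres of actin and myosin, while pericytes on capillaries rely on platelet-derived growth factor from the endothelium, read through its receptor, to stay on the vessel. The retina is known for its dense cover of pericytes, whose loss is an early change in diabetic retinopathy. The microRNA miR-143 is normally expressed in this lineage, where it is known to promote the contractile state of smooth muscle.

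The mature sequences of rat miR-143 are shown because the injected mimic copies this microRNA; the labels do not say which arm. They are from RefSeq (build GRCr8), 5′ to 3′, with the seed, bases 2 to 8, in capitals.
rno-miR-143-3p: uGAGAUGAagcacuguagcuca
rno-miR-143-5p: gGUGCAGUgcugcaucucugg
The seeds of the 2 arms differ. Sites for them in the mural genes were not searched, because no transcript sequence was at hand.

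Gene reads per library, recovered from the TPM values, numbered 10537303 to 13174627. The recovered lengths of the mural genes ran from 818 bases for Rgs5 to 6693 bases for Myh11. Des rested on the fewest reads, 31 to 195 per library, and Rgs5 and Pdgfrb on 498 to 1267. OIR mimic replicate 3, which stands apart in what follows, had the fewest reads of the 12 libraries. Over all tested genes it lay 0.269 (log2, root mean square) away from its group mean, within the range of 0.221 to 0.297 over the 12 libraries.

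In sham retinas Rgs5 was by far the most abundant of the mural genes. Rgs5 encodes a regulator of G-protein signalling used as a pericyte marker, and its mean was 149.6 ± 12.5 TPM (SD, n = 6), above 94.8% of the genes detected in any library. Pdgfrb, the receptor for platelet-derived growth factor B, stood at 16.7 ± 1.82 TPM, Tagln at 16.3 ± 3.62 TPM and Acta2 at 13.4 ± 2.56 TPM (SD, n = 6 each). These 3 neighbours overlapped, since Pdgfrb exceeded Tagln in 3 of 6 sham libraries and Tagln exceeded Acta2 in 4 of 6. Myh11 (4.38 ± 1.00 TPM) and Des (2.82 ± 0.413 TPM; SD, n = 6 each) were lowest. Their ranges overlapped slightly, but Myh11 exceeded Des in each of the 6 sham libraries.

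**Figure D1:**
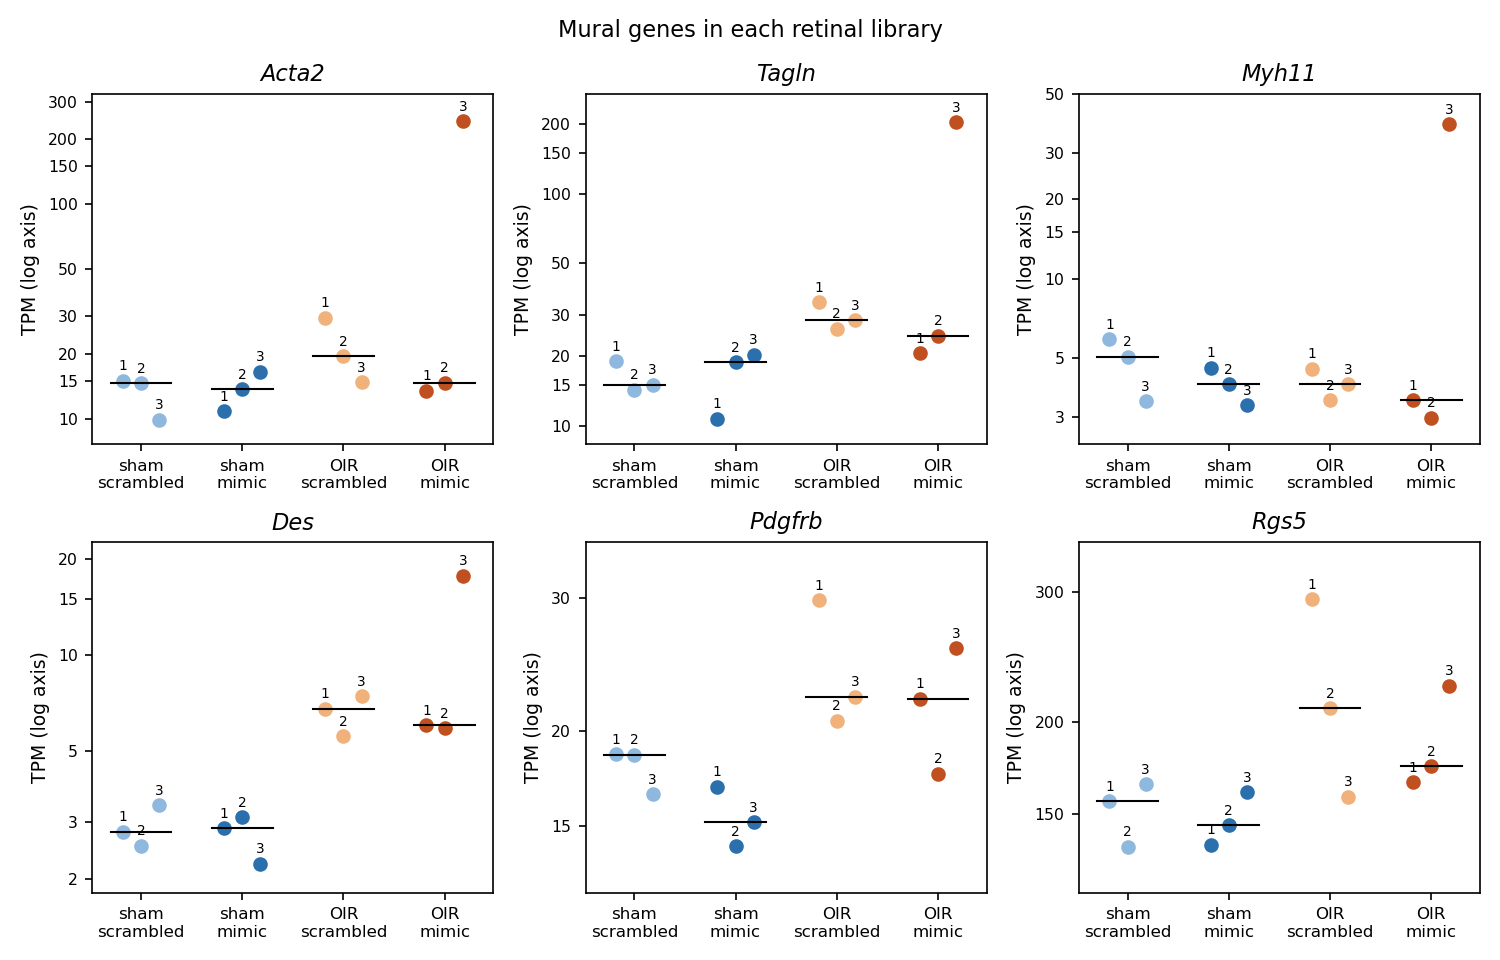
TPM of each mural gene (log axis, a separate scale per panel) in the 4 groups. Points are libraries with their replicate number, and black lines are group medians. OIR mimic replicate 3 lies far above the rest for Acta2 (242.4 TPM), Tagln (202.8 TPM), Myh11 (38.4 TPM) and Des (17.7 TPM), while OIR scrambled replicate 1 is highest for Pdgfrb and Rgs5.

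OIR mimic replicate 3 differed from the other 11 libraries in the smooth muscle genes. Acta2 encodes smooth muscle alpha-actin, the main actin of vascular smooth muscle. Acta2 (ENSRNOG00000058039) measured 15.0, 14.6 and 9.89 TPM in sham scrambled and 10.8, 13.7 and 16.5 TPM in sham mimic. In OIR it measured 29.5, 19.5 and 14.7 TPM with scrambled RNA and 13.5, 14.7 and 242.4 TPM with the mimic. A single OIR mimic library was thus 8.21 times the highest of all others, and the remaining 2 OIR mimic libraries lay within the sham range.

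Tagln encodes transgelin, an actin-binding protein of smooth muscle. Values of Tagln (ENSRNOG00000017628) were 19.0, 14.3 and 15.0 TPM in sham scrambled, 10.7, 18.8 and 20.2 TPM in sham mimic, 34.0, 26.1 and 28.4 TPM in OIR scrambled, and 20.5, 24.4 and 202.8 TPM in OIR mimic. Each OIR library was above each sham library, with 20.5 TPM just above 20.2 TPM, and OIR mimic replicate 3 was 5.97 times the next highest library.

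Myh11 encodes the smooth muscle myosin heavy chain, the most restricted marker of mature smooth muscle among these genes. Values of Myh11 (ENSRNOG00000057880) were 5.91, 5.07 and 3.43 TPM in sham scrambled, 4.60, 3.98 and 3.31 TPM in sham mimic, 4.55, 3.47 and 3.99 TPM in OIR scrambled, and 3.46, 2.98 and 38.4 TPM in OIR mimic. Apart from OIR mimic replicate 3, which was 6.50 times the next library, OIR and sham overlapped, and the lowest value of all was an OIR mimic library.

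Des encodes desmin, an intermediate filament of muscle cells that pericytes also contain. Des (ENSRNOG00000019810) measured 2.80, 2.53 and 3.39 TPM in sham scrambled, 2.88, 3.11 and 2.23 TPM in sham mimic, 6.78, 5.58 and 7.45 TPM in OIR scrambled, and 6.03, 5.90 and 17.7 TPM in OIR mimic. All 6 OIR libraries lay above all 6 sham libraries with a wide gap, and OIR mimic replicate 3 was again highest, at 2.37 times the next.

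The pericyte genes did not share that peak. Pdgfrb (ENSRNOG00000018461) measured 18.6, 18.6 and 16.5 TPM in sham scrambled, 16.9, 14.1 and 15.2 TPM in sham mimic, 29.8, 20.6 and 22.2 TPM in OIR scrambled, and 22.1, 17.6 and 25.8 TPM in OIR mimic. Of the OIR libraries, OIR mimic replicate 2 alone fell among the sham values, and OIR scrambled replicate 1 was highest. Rgs5 (ENSRNOG00000002730) measured 156.1, 135.4 and 164.5 TPM in sham scrambled, 136.2, 144.8 and 160.4 TPM in sham mimic, 293.2, 208.5 and 158.3 TPM in OIR scrambled, and 165.5, 174.0 and 223.8 TPM in OIR mimic. Its OIR scrambled group spread from within the sham range to the highest value of the series. For both genes OIR mimic replicate 3 was below OIR scrambled replicate 1, at 0.864 times its value for Pdgfrb and 0.764 times for Rgs5.

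Within a library, the summed TPM of Acta2, Tagln, Myh11 and Des was 0.175 to 0.302 times that of Pdgfrb and Rgs5 in 11 libraries. In OIR mimic replicate 3 the ratio was 2.01, from 501.3 TPM of smooth muscle genes over 249.6 TPM of pericyte genes. Acta2 (242.4 TPM) and Tagln (202.8 TPM) made up most of the former there, and Rgs5 (223.8 TPM) most of the latter. Myh11, Des and Pdgfrb thus weigh little in this ratio. This ratio does not depend on how libraries are scaled against each other. In sham it was 0.223 ± 0.0318 (SD, n = 6), and in the other 5 OIR libraries 0.251 ± 0.0297 (SD, n = 5). Proportions among Acta2, Tagln and Myh11 moved less, and that of Des to Acta2 more. The Acta2 to Tagln ratio was 1.20 in OIR mimic replicate 3 and 0.518 to 1.02 elsewhere. The ratio of Myh11 to Acta2 there was 0.158, inside the range of 0.154 to 0.271 over all OIR libraries and below the 0.201 to 0.426 of sham. The ratio of Des to Acta2 was 0.0729 there, against 0.230 to 0.506 in the other 5 OIR libraries and 0.135 to 0.343 in sham.

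**Figure D2:**
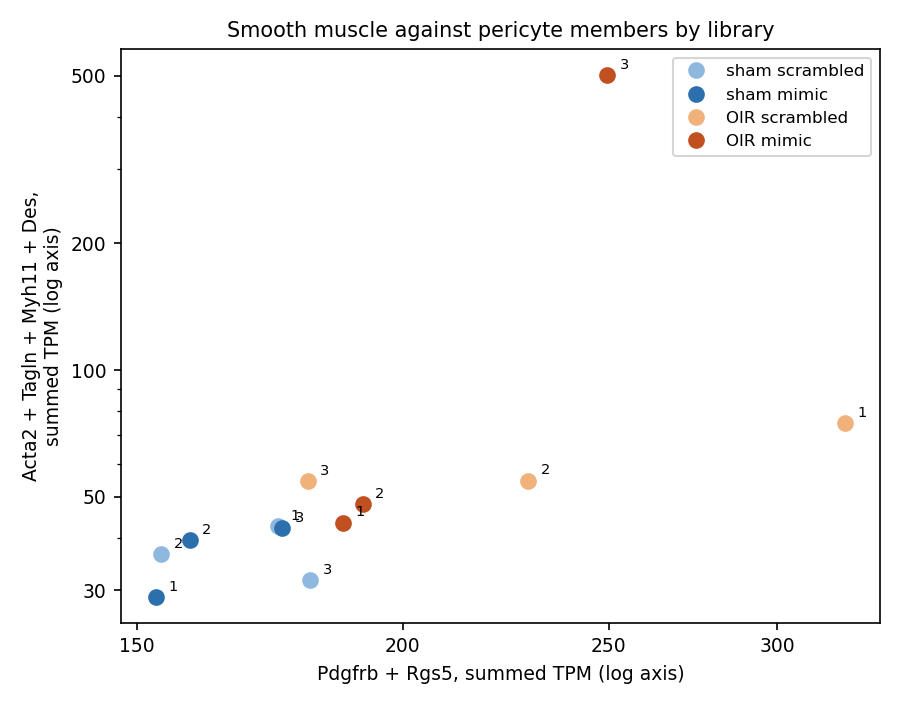
Summed TPM of Acta2, Tagln, Myh11 and Des against summed TPM of Pdgfrb and Rgs5 (both log axes), 1 point per library with its replicate number. Ratios of the former to the latter are 0.175 to 0.302 in 11 libraries and 2.01 in OIR mimic replicate 3. Acta2 and Tagln make up most of the former sum, and Rgs5 most of the latter.

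Such single-library peaks were rare among the genes tested. The filter on low values had removed genes with at least 1 TPM in fewer than 3 libraries. A gene high in 1 library and below 1 TPM in the others is therefore missing from these counts and ranks. Of the 15916 genes tested, 70 (0.44%) were more than 2 times as high in OIR mimic replicate 3 as in each other library, and 4 of the mural genes were among them. More than 5 times as high were 14 genes, with Acta2, Tagln and Myh11 among them. By the size of this multiple Acta2 ranked 4, Myh11 8, Tagln 10 and Des 43 among the 15916, while Pdgfrb ranked 6557 and Rgs5 9917. OIR scrambled replicate 3 had a similar number of genes above 2 times each other library, 67, none of them mural, and the remaining 10 libraries had 0 to 16. The identifiers are not paired with names, so the other genes of this peak and markers of other eye tissues were not identified, and their part in it was not tested. The 2-fold and 5-fold limits were chosen after the values were seen.

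The comparison of OIR with sham asks what the retinopathy changed in these genes. Des rose, and the pericyte genes rose modestly when both injections were averaged, while Acta2, Tagln and Myh11 did not pass the test in any of the 3 comparisons with all 12 libraries. Mean Des was 2.92 times as high in the 6 OIR as in the 6 sham libraries (8.24 ± 4.68 against 2.82 ± 0.413 TPM; SD, n = 6 each), and 2.25 times without OIR mimic replicate 3. Pdgfrb rose to 23.0 ± 4.26 TPM, 1.38 times its sham mean, and Rgs5 to 203.9 ± 50.7 TPM, 1.36 times (SD, n = 6 each). In bulk retina, more cells of a type and more RNA per cell cannot be told apart.

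Averaged over both injections, 3 of the mural genes were called higher (limma on log2(TPM + 1), Benjamini-Hochberg adjusted p below 0.05), where 30.2% of all tested genes were called and 17.5% were called higher. At an unadjusted p below 0.05 there were 4, where 40.9% of all tested genes passed. The log2 difference was 1.17 for Des (SE 0.22, adjusted p 0.00232), 0.43 for Pdgfrb (SE 0.11, adjusted p 0.0106) and 0.41 for Rgs5 (SE 0.13, adjusted p 0.037). Tagln had an equally large difference of 1.17 but a wide error (SE 0.48, adjusted p 0.0955), and Acta2 (1.01, SE 0.63, adjusted p 0.267) and Myh11 (0.33, SE 0.48, adjusted p 0.657) were not called. The median over the 6 genes was 0.72 with OIR mimic replicate 3 included, against 0.04 over all tested genes. Without that library the 6 differences were -0.21, 0.34, 0.35, 0.37, 0.65 and 0.93, against a median of 0.03 over all tested genes. Groups of 6 did not overlap for 2 of the mural genes, Tagln and Des, where 9.78% of the tested genes did not overlap and were higher.

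Leaving out OIR mimic replicate 3 moved Tagln and Rgs5 across the threshold in opposite directions. Tagln was then called with a smaller difference of 0.65 and a smaller error (SE 0.16, limma adjusted p 0.0118). Rgs5 was no longer called (0.35, SE 0.13, adjusted p 0.0813). Des (0.93, SE 0.12, adjusted p 0.000362) and Pdgfrb (0.37, SE 0.11, adjusted p 0.0259) remained called, and Des, Pdgfrb and Tagln were the 3 called, where 26.8% of all tested genes were called in that fit. Without it the differences were 0.34 for Acta2 (adjusted p 0.199) and -0.21 for Myh11 (adjusted p 0.299), so that the estimate for Myh11 changed sign. The Rgs5 call was also lost without sham scrambled replicate 1 (adjusted p 0.0595) or 2 (0.0822), sham mimic replicate 1 (0.0771) or 2 (0.07), or OIR scrambled replicate 2 (0.0599), and under 6 of 12 other settings, median-ratio and quantile scaling among them. With OIR mimic replicate 3 kept, Tagln was called without OIR mimic replicate 1 (1.46, limma adjusted p 0.0429). It was also called with arrays weighted by a quality estimated from these data (1.68, limma arrayWeights, adjusted p 0.0168). Both differences were larger than the 1.17 of the fit with all 12 libraries and further from the 0.65 without OIR mimic replicate 3. Both calls thus leaned more on that library. In all, Tagln was called in 2 of 12 fits that left out 1 library and in 1 of 12 other settings. The calls of Des and Pdgfrb held in each of the 12 fits that left out 1 library.

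**Figure D3:**
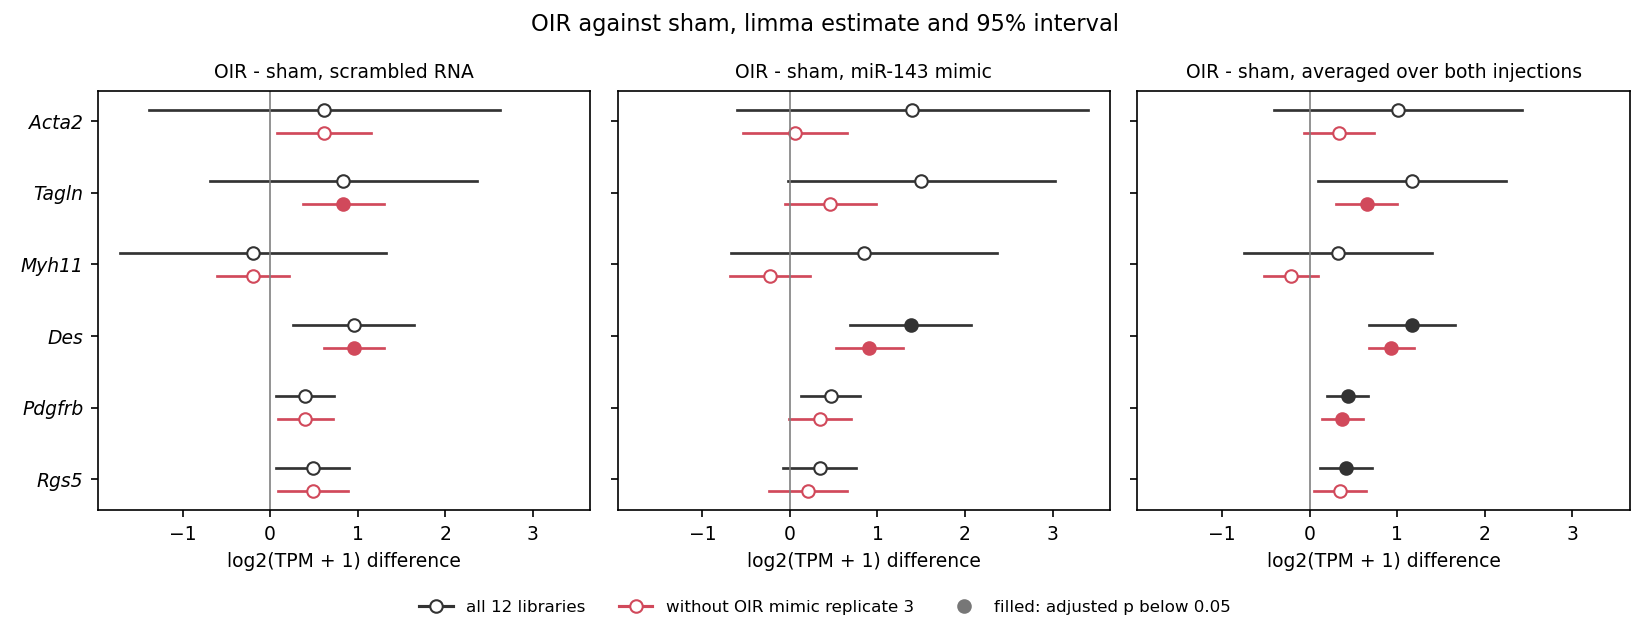
Differences in log2(TPM + 1) between OIR and sham for each mural gene (points) with 95% intervals from limma, for each injection and for their average. Dark marks use all 12 libraries, red marks leave out OIR mimic replicate 3, and filled marks have an adjusted p below 0.05. Des lies at 0.91 to 1.38 in all 6 fits, and intervals of Acta2, Tagln and Myh11 shrink without that library.

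With scrambled RNA alone, 0 of the mural genes were called, where 10.7% of all tested genes were called and 6.79% were called higher (limma). At an unadjusted p below 0.05 there were 3, Des, Pdgfrb and Rgs5, where 26% of all tested genes passed, and voom, which weights the recovered reads by their precision, gave 1, Pdgfrb, where 14% of all tested genes were called. Des had a log2 difference of 0.96 (SE 0.32, adjusted p 0.0755), Tagln 0.84 (SE 0.68, adjusted p 0.494), Rgs5 0.49 (SE 0.19, adjusted p 0.126) and Pdgfrb 0.40 (SE 0.15, adjusted p 0.121). Groups of 3 did not overlap for 3 of the mural genes, Tagln, Des and Pdgfrb, where 19.7% of the tested genes did not overlap and were higher. The fit shares 1 spread per gene over all 4 groups, and without OIR mimic replicate 3, which is in neither group, the same differences were called for Des (SE 0.15, adjusted p 0.00544) and Tagln (SE 0.21, adjusted p 0.0328), where 9.8% of all tested genes were called. Without OIR scrambled replicate 1 the difference of Rgs5 was 0.26 (adjusted p 0.332) and that of Pdgfrb 0.25 (adjusted p 0.346). Without OIR scrambled replicate 3 Rgs5 was called, at 0.70 (adjusted p 0.0343).

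With the mimic, 1 of the mural genes was called, Des (log2 difference 1.38, SE 0.32, limma adjusted p 0.0107), where 19.5% of all tested genes were called and 9.76% were called higher. At an unadjusted p below 0.05 there were 2, where 32.3% of all tested genes passed. Without OIR mimic replicate 3 it was 0.91 (SE 0.17, adjusted p 0.00733), where 15.3% of all tested genes were called. With only these 2 groups in the fit the call was lost (adjusted p 0.0529). Pdgfrb just missed the threshold (0.46, SE 0.15, adjusted p 0.0538), and it was called without OIR scrambled replicate 1 (adjusted p 0.0323) or OIR mimic replicate 2 (adjusted p 0.0201). In the other 10 fits that left out 1 library it was not called, with the highest adjusted p, 0.188, and a difference of 0.34 without OIR mimic replicate 3. Groups did not overlap for 4 of the mural genes, where 20.1% of the tested genes did not overlap and were higher. Differences of Tagln (1.50, adjusted p 0.16), Acta2 (1.40, adjusted p 0.323) and Myh11 (0.85, adjusted p 0.44) rested on OIR mimic replicate 3. Without that library they were 0.46 (adjusted p 0.234), 0.06 (adjusted p 0.915) and -0.23 (adjusted p 0.529).

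The comparison of mimic with scrambled RNA asks whether the added miR-143 moved genes of the lineage that normally expresses it. No mural gene passed the test in OIR, where the 2 injections differed by less than the spread between libraries. The limma count was 0 of 6 at the adjusted threshold, where 0% of all tested genes were called, 0 at an unadjusted p below 0.05, where 9.37% of all tested genes passed, and 0 by limma voom. Groups overlapped for all 6, where 3.64% of the tested genes did not overlap and were higher and 9.01% were lower. Means of the smooth muscle genes were higher with the mimic, at 4.25 times scrambled RNA for Acta2, 2.80 times for Tagln, 3.73 times for Myh11 and 1.49 times for Des. Without OIR mimic replicate 3 each of these ratios fell below 1, to 0.664, 0.761, 0.803 and 0.903. Their log2 differences went from 0.83, 0.66, 0.83 and 0.36 to -0.51, -0.38, -0.24 and -0.12. Adjusted p without that library was 0.582 for Acta2, 0.634 for Tagln, 0.736 for Myh11 and 0.853 for Des.

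Pericyte genes gave the narrower limits in OIR. Pdgfrb differed by -0.14 with a 95% interval of -0.48 to 0.19, and Rgs5 by -0.19 with an interval of -0.61 to 0.22 (limma, adjusted p 0.79 and 0.774). Neither interval reaches a doubling or a halving on that scale. The estimates moved with single libraries: without OIR mimic replicate 3 they were -0.27 for Pdgfrb and -0.33 for Rgs5. Without OIR scrambled replicate 1 both changed sign, to 0.0086 and 0.035. For Acta2 the interval ran from -1.17 to 2.83, and it excludes neither a rise nor a fall of 2-fold. Without OIR mimic replicate 3 it ran from -1.10 to 0.092. The library left out is the one with the high value, so this fit cannot exclude a 2-fold rise. It does not exclude a 2-fold fall either.

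In sham retinas the 2 injections gave nearly equal means for Acta2 and Tagln. They were 13.7 ± 2.86 TPM with the mimic and 13.2 ± 2.84 TPM with scrambled RNA for Acta2, and 16.6 ± 5.12 and 16.1 ± 2.54 TPM for Tagln (SD, n = 3 each). The ratio of means was 0.825 for Myh11, 0.941 for Des, 0.858 for Pdgfrb and 0.968 for Rgs5. Groups overlapped for all 6 genes, 0 were called or had an unadjusted p below 0.05 (limma; limma voom also 0). Of all tested genes 0% were called, 2.09% had an unadjusted p below 0.05, and 2.83% did not overlap and were higher and 3.92% lower. The interval of the log2 difference was -0.55 to 0.13 for Pdgfrb, -0.46 to 0.37 for Rgs5 and -0.76 to 0.63 for Des. It was wider for Acta2 (-1.95 to 2.06), Tagln (-1.52 to 1.52) and Myh11 (-1.73 to 1.31), for which a 2-fold change in sham is not excluded. OIR mimic replicate 3 enters these intervals through the shared spread, and without it they were -0.48 to 0.59, -0.46 to 0.47 and -0.62 to 0.20. Averaged over OIR and sham the mimic gave 0 calls, 0 at an unadjusted p below 0.05 and 0 by voom, where 0% of all tested genes were called and 7.18% had an unadjusted p below 0.05. Pdgfrb came closest, at -0.18 (SE 0.11, adjusted p 0.641).

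The interaction, the mimic effect in OIR minus that in sham, called 0 of 6 mural genes (limma; 0 at an unadjusted p below 0.05, 0 by voom), where 0% of all tested genes were called and 3.7% had an unadjusted p below 0.05. Estimates were 1.04 for Myh11 (SE 0.97), 0.78 for Acta2 (SE 1.27), 0.66 for Tagln (SE 0.97) and 0.42 for Des (SE 0.45). Without OIR mimic replicate 3 these 4 became -0.03, -0.56, -0.38 and -0.05. The pericyte estimates were 0.07 for Pdgfrb (SE 0.22) and -0.15 for Rgs5 (SE 0.27).

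Across libraries the smooth muscle genes varied together mainly through that 1 library. Pearson r of log2(TPM + 1) over 12 libraries was 0.66 to 0.97 for the 6 pairs among Acta2, Tagln, Myh11 and Des. Over the 11 libraries without OIR mimic replicate 3 it was -0.34 to 0.79. Acta2 and Tagln kept an r of 0.79, while Acta2 and Myh11 went from 0.93 to 0.11. Points of these correlations share library and condition, so they describe these libraries only. Within groups, after removing group means, the 6 smooth muscle pairs ranged from -0.51 to 0.63 over the 11 libraries. Pdgfrb and Rgs5 had an r of 0.79 over 12 and 0.75 over 11 libraries. Within groups their r fell to 0.56 over 12 and 0.43 over 11, inside the range of the smooth muscle pairs over 11. Acta2 was closer to Rgs5 without that library, at 0.84 over 11 against 0.59 over 12.

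**Figure D4:**
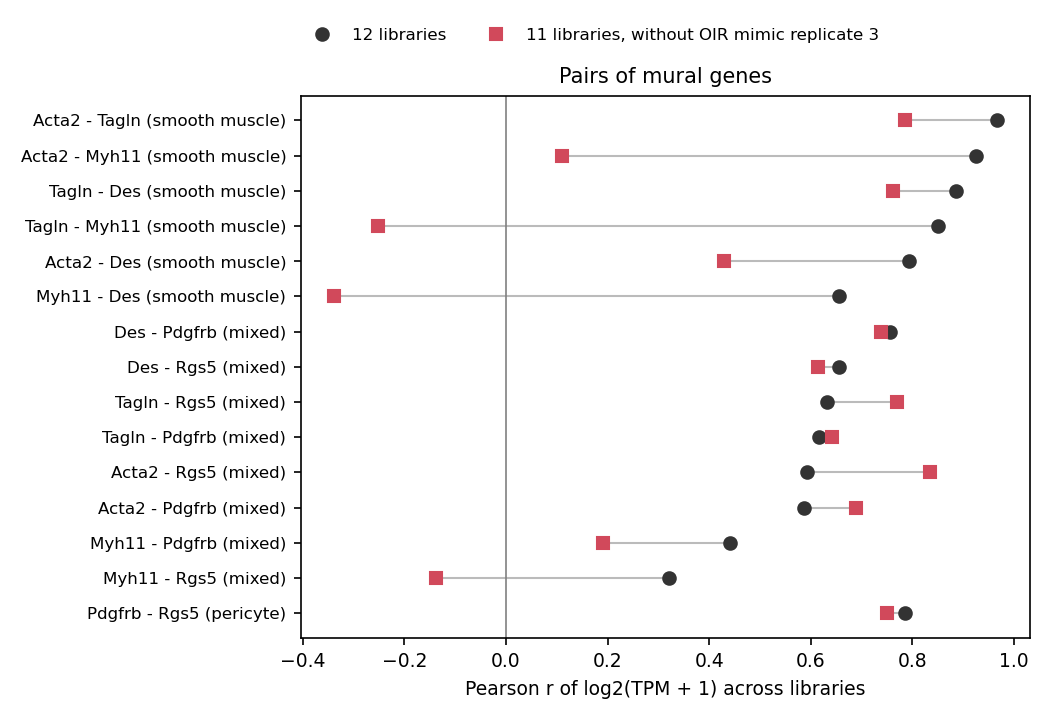
Pearson r of log2(TPM + 1) for each pair of mural genes over 12 libraries (circles) and over 11 without OIR mimic replicate 3 (squares). The 3 smooth muscle pairs with Myh11 drop from 0.66 to 0.93 down to -0.34 to 0.11, and the pericyte pair is at 0.79 and 0.75. Group means were not removed.

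The genes whose pattern was most like the mean of the 6 standardised profiles over the 12 libraries are given by identifier only. ENSRNOG00000017164 had an r of 0.97 and stood at 2.27 to 4.18 TPM in 11 libraries and at 5.39 TPM in OIR mimic replicate 3. ENSRNOG00000021155 had an r of 0.96 and stood at 4.67 to 11.1 TPM and at 21.6 TPM. Over the 11 other libraries, with the mean profile recomputed on them, their r was 0.91 and 0.85. In all, 16 of the 15910 other tested genes had an r above 0.9 over 12 libraries.

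Upstream sequence in the RefSeq promoter table was at hand for 3 of the 6 genes, Acta2, Des and Rgs5. All 3 available windows are shown, whether or not the gene had the peak in OIR mimic replicate 3. Acta2 and Des had it and Rgs5 did not. No link between these windows and the peak was tested. Each holds the 250 bases before the annotated start, in build GRCr8, 5′ to 3′ on the gene's strand. Capitals mark CArG boxes, the element bound by serum response factor, with at most 1 G or C in the core, and the letters GGAATG, the core of the muscle element called MCAT.
Acta2 (chr1:241172504-241172753, minus strand): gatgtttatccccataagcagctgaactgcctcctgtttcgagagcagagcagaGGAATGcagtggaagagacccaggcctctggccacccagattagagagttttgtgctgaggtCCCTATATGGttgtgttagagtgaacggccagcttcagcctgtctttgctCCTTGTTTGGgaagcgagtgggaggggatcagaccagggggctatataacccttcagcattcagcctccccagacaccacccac
Des (chr9:84299376-84299625, plus strand): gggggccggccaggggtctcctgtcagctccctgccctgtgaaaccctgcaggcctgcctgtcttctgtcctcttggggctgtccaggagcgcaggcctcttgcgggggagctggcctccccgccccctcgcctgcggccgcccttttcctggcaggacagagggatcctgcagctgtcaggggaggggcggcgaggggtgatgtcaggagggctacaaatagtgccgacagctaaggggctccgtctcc
Rgs5 (chr13:84380827-84381076, plus strand): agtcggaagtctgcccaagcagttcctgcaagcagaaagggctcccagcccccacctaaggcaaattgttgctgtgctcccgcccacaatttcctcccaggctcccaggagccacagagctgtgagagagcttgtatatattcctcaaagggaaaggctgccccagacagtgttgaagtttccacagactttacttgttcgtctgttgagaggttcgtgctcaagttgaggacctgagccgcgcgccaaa
The Acta2 window held CArG boxes with 1 G or C in the core, CCCTATATGG at -134 to -125 and CCTTGTTTGG at -84 to -75, counted from the base before the start as -1. Both strands were searched, and matches did not overlap each other or GGAATG, which lay at -196 to -191. Among the 33469 upstream windows of the same length in the table, 8.08% held such a CArG box, 1.50% a CArG box with only A and T in the core, and 12.1% the letters GGAATG. The Des and Rgs5 windows held neither motif. A match is a description of letters, not of a bound site.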

How the data were processed

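Per the labels' protocols, total RNA and miRNA were taken from dissected rat retina with a miRNeasy kit and read on a HiSeq-2500 as single ends of 50 bases. That text describes miRNA libraries, whereas the table lists Ensembl genes. FastQC, TopHat, Cufflinks, Cuffdiff and build rn6 appear in the submitters' processing notes with no role or version, and the counting method was not stated in any of them. TPM is the unit the authors deposited: the file holds TPM values of 32883 genes in 12 columns, and lines above that table tie each column to a title. OIR scrambled replicate 3 and OIR mimic replicate 1 have no disease or transfection tag and were grouped by title.

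Whole reads and gene lengths were recovered for the 22310 genes above 0 as the smallest whole numbers in proportion (tolerance 0.02; largest relative error of the recomputed TPM 9.71e-08). Genes of at least 1 TPM in at least 3 libraries, 15916 in all, entered limma (version 3.58.1, R 4.3.3) as log2(TPM + 1). The model had a mean for each of 4 groups, leaving 8 residual degrees of freedom, and eBayes used its trend and robust settings. Benjamini-Hochberg adjustment ran over every tested gene, and a call is an adjusted p below 0.05. Fold changes on this scale understate those of low genes. Recovery and fit were tested on simulated data.

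Genes and lists were chosen with earlier results of these data known. Lists of further mural genes and of markers of other cell types, set by symbol, could not be matched to identifiers and were not run. Named genes are the 6 chosen ones and the 2 with the highest Pearson r to their mean standardised profile. Alternatives covered the pseudocount, the filter on low values, median-ratio and quantile scaling, plain eBayes, arrayWeights, fits of only the groups compared, a replicate block, limma voom on recovered reads, and fits without each library or without both untagged libraries. A fit without both libraries that share a column number was added after seeing the data.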

Additional observations from a re-analysis of the deposited data

Results flagged for a closer look

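Among the 6 OIR libraries, OIR mimic replicate 3 lay far from the others for 4 mural genes. The gap to the nearest library, as a share of the whole range of log2(TPM + 1), was 0.736 for Acta2, 0.784 for Tagln, 0.855 for Myh11 and 0.761 for Des. The limit for 6 values is 0.625 (Dixon, 95%). Chance flags about 1 in 20 such sets, and 12 were looked at, the 6 genes in OIR and in sham. These 4 values come from the same library. For Pdgfrb (0.303) and Rgs5 (0.438) the gap in OIR stayed below the limit.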

How the results depend on the processing

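For 42 pairs of gene and comparison, 500 of 528 values under other settings and 462 of 504 with 1 library left out kept their direction and their side of the threshold. Scaling moved the median of all tested genes by at most 0.064 (log2). Des kept its direction in OIR against sham in every setting run, and its call averaged over both injections. The number of mural genes called in OIR against sham with scrambled RNA, 0 as reported, was 2 with arrayWeights (20.9% of all tested genes called, against 10.7%), 2 with only the 2 groups (8.23%), 1 without both untagged libraries (5.85%) and 1 with voom (14%); with 1 library left out it ranged from 0 to 2. With the mimic, 1 as reported, it was 2 with a filter of 5 TPM, median-ratio scaling, quantile normalisation, a replicate block or voom (20.7% to 22.9% of all tested genes called, against 19.5%), 5 with arrayWeights (33.1%) and 0 with only the 2 groups (14.3%); with 1 library left out it ranged from 1 to 2. Averaged, 3 as reported, it ranged from 2 to 4 with 1 library left out, where 25.3% to 30.8% of all tested genes were called. In such fits that share was 5.06% to 13.7% with scrambled RNA and 12.8% to 20.6% with the mimic. Under other settings the averaged count was 4 with arrayWeights (41.1%). It was 2 with no filter (20.7%), median-ratio scaling (30.8%), quantile normalisation (31.9%), plain eBayes (29.2%) or a replicate block (31.6%). Without both libraries that share a column number it was also 2 (25.3%). With arrayWeights the differences with the mimic were 2.67 for Acta2, 2.42 for Tagln and 2.09 for Myh11. They were 1.40, 1.50 and 0.85 in the main fit, and 0.06, 0.46 and -0.23 without OIR mimic replicate 3. The weighted estimates of these genes thus leaned more on that library. The cause of the moves in these counts was not tested.

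Replicate numbers are shared by the groups, but libraries of the same replicate number correlated at -0.048 to 0.258 in their deviations from the group means (18 pairs), not all above 0.1, so these numbers were not taken as pairs. The highest, 0.258, is the pair that also shares a column number, sham scrambled 1 and sham mimic 1, and it lies above the highest of the 36 pairs of different number, 0.200. With the replicate block the log2 difference of Pdgfrb with the mimic, 0.46, was called (adjusted p 0.0351) and that of Rgs5 averaged, 0.41, was not (adjusted p 0.0591). Only the former changed the count with the mimic, to 2.

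Signs changed as follows, for values that were not called. With 1 library left out, the mimic effect in OIR ranged from -0.51 to 1.53 for Acta2, -0.38 to 1.25 for Tagln, -0.24 to 1.41 for Myh11, -0.12 to 0.60 for Des, -0.27 to 0.0086 for Pdgfrb and -0.41 to 0.035 for Rgs5. In sham it ranged from -0.13 to 0.20 for Acta2, -0.16 to 0.27 for Tagln, -0.14 to 0.037 for Des and -0.13 to 0.014 for Rgs5. Averaged over OIR and sham it ranged from -0.23 to 0.79 for Acta2, -0.19 to 0.62 for Tagln, -0.23 to 0.60 for Myh11 and -0.092 to 0.27 for Des. The interaction ranged from -0.56 to 1.48 for Acta2, -0.38 to 1.24 for Tagln, -0.034 to 1.62 for Myh11, -0.053 to 0.67 for Des, -0.058 to 0.22 for Pdgfrb and -0.36 to 0.080 for Rgs5. Myh11 in OIR against sham ranged from -0.23 to 1.43 with the mimic and -0.21 to 0.62 averaged. Under other settings the mimic effect in sham was -0.00073 for Tagln with a pseudocount of 0.1, 0.0060 for Des with quantile normalisation, and for Rgs5 0.11 with arrayWeights and 0.030 without both libraries of one column number, a fit chosen after seeing the data. The Pdgfrb interaction was -0.0030 without both untagged libraries. The cause was not tested.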
